A study of Mus musculus with 12 samples.

Results

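The 33 genes described here encode the core machinery of autophagy and the lysosome, the route by which cells enclose their own contents and digest them. They were chosen by symbol for their textbook roles, with earlier results of these data known. All 33 of 33 symbols were found in the deposited table of 46095 genes and passed the filter on low counts. They comprise 5 genes of the LC3 and GABARAP family, 3 cargo receptors, 4 genes of the ULK initiation complex, 4 nucleation genes, 5 conjugation genes, the transcription factors Tfeb and Tfe3, 4 lysosomal membrane proteins and 6 proteins of the lysosomal lumen.

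The measurement was RNA sequencing of whole pancreas during acute pancreatitis. The control group was 6 libraries from wild type C57BL/6J mice (WT), and the other group was 6 libraries from Axl-/-Mertk-/- mice (AMKO), labelled as lacking the receptor tyrosine kinases Axl and Mertk. The sources used here leave the strain background of AMKO animals unstated. Every mouse in both groups, at postnatal day 56, received caerulein, a cholecystokinin analogue that overstimulates acinar cells, at 100 µg/kg in 10 hourly intraperitoneal injections, and was killed 12 h after the first. All groups therefore carry pancreatitis, and an untreated pancreas is not analysed here. Neither the animal behind each library nor its sex is stated, so p-values measure the spread between these libraries, which may be technical.

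Library totals ran from 10668637 to 15184371 counts. Levels are given as CPM, counts brought to a common depth on library sizes scaled by the trimmed mean of M values (TMM), and differences as log2 fold changes, AMKO minus WT, with their standard error (SE). Axl, the check of the labels, lay at 44.4 to 77.1 CPM in WT and at 5.60 to 11.5 CPM in AMKO libraries. Mertk lay at 2.69 to 10.5 CPM in WT and 4.37 to 10.5 CPM in AMKO libraries (log2 fold change -0.03, SE 0.30, adjusted p = 0.968). Which part of Mertk the allele removes is not stated, so counts per gene do not check its label. Acinar markers summed to 253088 to 376190 CPM in WT and 234061 to 447226 CPM in AMKO libraries, with Prss2 and Try4 at 0 throughout. Of 21 tested acinar genes, 2 were called at an adjusted p under 0.05, both higher, beside 2.41% of all genes tested. WT 1, WT 2 and WT 3 held 2 to 7 counts of albumin (Alb), a liver transcript, against 141 to 309 in the other 9 libraries, so WT 4, WT 5 and WT 6 resembled AMKO in this respect and WT 1 to 3 did not. Xist, expressed from an inactive X chromosome, had 6858 to 16498 counts in WT 2, 4 and 5 and AMKO 1, 3 and 6, and 1 to 58 in the other 6 libraries.

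In macroautophagy, the ULK1 kinase complex starts the process, a phosphatidylinositol 3-kinase complex built on Beclin 1 nucleates the membrane, and a conjugation cascade attaches LC3 and GABARAP proteins to the growing autophagosome. Cargo receptors such as p62 (Sqstm1) hold the cargo and bind LC3, and fusion with a lysosome exposes both to acid hydrolases. In the pancreas, pancreatitis is known for autophagic vacuoles that accumulate in acinar cells, where lysosomal cathepsins meet digestive zymogens. RNA levels measure neither the flow of cargo through this route nor the amount of any protein.

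Of the 33 genes, 3 passed the test at an adjusted p under 0.05 (edgeR's quasi-likelihood test, Benjamini-Hochberg adjustment over 13743 genes), which is 9.09% of the members beside 5.78% of all genes tested. Sqstm1 and Gabarapl1 were higher in AMKO libraries, and 2.41% of all genes were called higher. Ulk1 was lower, and 3.37% of all genes were called lower. The fitted fold change was above 0 for 25 of the 33 (75.8%), against 6830 of 13743 genes (49.7%), with a median log2 fold change of 0.12 over the members and -0.00 over all genes. An unadjusted p under 0.05 was reached by 11 members (33.3%), beside 21.9% of all genes. Because the members were chosen with earlier results known, these shares are given as description, with no test over the list. The CPM ranges of the genotypes did not overlap for 3 members, beside 3.54% of all genes. These were Lamp1 and Ctsd on the higher side (1.24% of all genes) and Ulk1 on the lower side (2.3%). In bulk tissue, fewer cells of a type and less RNA per cell cannot be told apart, for any of these genes.

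**Figure D1:**
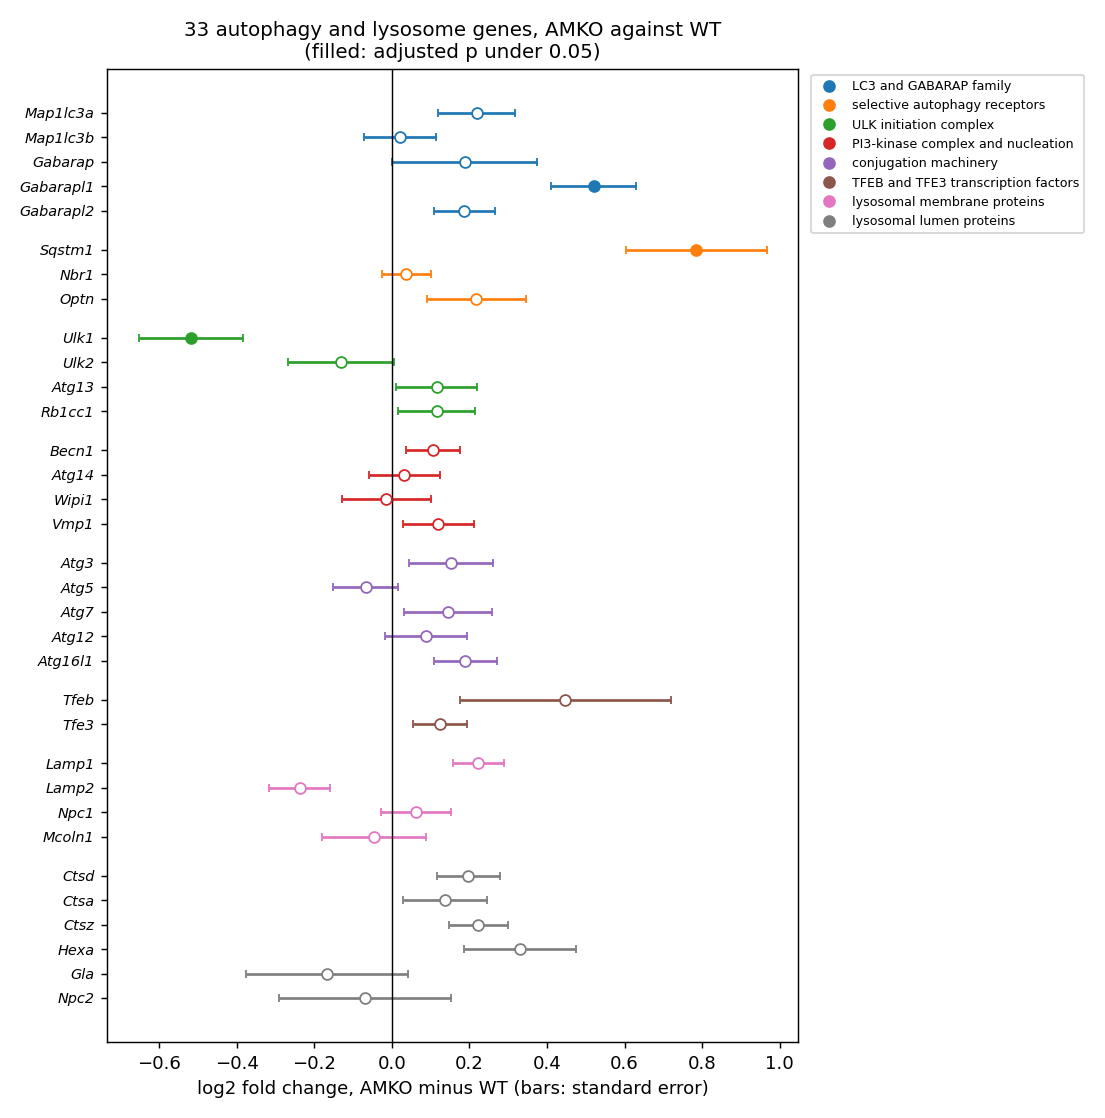
Log2 fold change (AMKO minus WT, n = 6 libraries per genotype) of each of the 33 genes with its standard error, ordered by role. Filled points passed the test. All 8 genes of the LC3 family and the receptors lie to the right of 0 with TMM scaling (Map1lc3b and Nbr1 turn below 0 with total-count scaling), and Ulk1, at -0.52, is the member farthest to the left.

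Among the genes that coat the autophagosome and load its cargo, 2 of 8 passed the test, both higher, beside 2.41% of all genes. All 8 had a fitted fold change above 0, beside 49.7% of all genes, with a median of 0.20. Map1lc3b (-0.020) and Nbr1 (-0.0013) turned below 0 with total-count scaling. As with the whole list, these counts are description, with no test over the group.

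Sqstm1 encodes p62, the receptor that binds ubiquitinated cargo and LC3, is itself degraded by autophagy, and is also a transcriptional target of the antioxidant factor NRF2. It lies on the minus strand at chr11:50199366-50210827 (mm10). Its level was lowest at 772 CPM, with a median of 1025 and a highest of 1488, in WT libraries, and 1353, 1879 and 2265 CPM in AMKO libraries. In 5 of 6 AMKO libraries it was above every WT library, and AMKO 1, at 1353 CPM, lay below WT 3. The log2 fold change was 0.79 (SE 0.18, adjusted p = 0.0219), a 1.72-fold higher level.

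The WT values of Sqstm1 fell apart by library: WT 2, WT 4 and WT 5 lay at 792, 861 and 772 CPM, and WT 1, WT 3 and WT 6 at 1189, 1488 and 1310 CPM. The low libraries are the WT libraries with 6858 or more Xist counts. Among AMKO libraries, those with Xist counts (1, 3 and 6) had 1353, 1885 and 2140 CPM, and those without (2, 4 and 5) had 2265, 1874 and 1537 CPM, so these overlapped. With the Xist level as a covariate, a fit added after the data were seen, the Sqstm1 difference was 0.83 (adjusted p = 0.00981). The call depended on single libraries: it was lost without WT 2 (adjusted p = 0.0515), WT 4 (0.0547), AMKO 2 (0.0579), AMKO 3 (0.0518) or AMKO 6 (0.0507), with log2 fold changes between 0.71 and 0.90 over the 12 fits that left out 1 library.

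Gabarapl1, at chr6:129533160-129542346 on the plus strand (mm10), encodes a GABARAP-subfamily protein that binds receptors and the ULK complex. WT libraries ran from 73.9 CPM through a median of 92.1 to 106 CPM, and AMKO libraries from 104 through 134 to 151 CPM. Here 5 of 6 AMKO libraries lay above the whole WT range, and AMKO 5, at 104 CPM, lay inside it. The log2 fold change was 0.52 (SE 0.11, adjusted p = 0.0141), a 1.43-fold higher level, and it passed the test whichever single library was left out (adjusted p from 0.00560 to 0.0391).

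Sqstm1 and Gabarapl1 each share exon sequence with a gene on the opposite strand, Mrnip (580 bp) and 1700101I11Rik (570 bp). Whether strand was used in counting is unstated, so reads from the shared stretches could not be assigned with certainty. The partners were counted at 0 to 16 (Mrnip, in the table as 3010026O09Rik) and 0 to 12 in every library, against at least 8263 counts for Sqstm1 and 965 for Gabarapl1.

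Measured against the WT libraries of either kind, the differences kept their direction. Against WT 4, 5 and 6 alone, Sqstm1 differed by 0.92 (adjusted p = 0.0629), Gabarapl1 by 0.59 (0.0519) and Ulk1 by -0.54 (0.183). Against WT 1, 2 and 3 alone, the values were 0.67 (0.163), 0.47 (0.152) and -0.48 (0.0456). Each of these fits holds fewer libraries.

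The other LC3-family genes did not pass the test. Map1lc3b, which encodes LC3B, the usual protein marker of autophagosomes, had a median of 172 CPM in WT and 178 CPM in AMKO libraries, a log2 difference of 0.02 (SE 0.09, adjusted p = 0.919). Map1lc3a, encoding LC3A, had medians of 159 and 185 CPM (0.22, SE 0.10, adjusted p = 0.223), with 3 of 6 AMKO libraries above the WT range. Gabarapl2, encoding GATE-16, differed by 0.19 (SE 0.08, adjusted p = 0.177); its value is uncertain, since 3 processed pseudogenes (Gm3724, Gm6051 and Gm5829) match it at 96.6 to 99.4% identity over 349 to 352 bp.

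Gabarap itself was counted only 24 to 55 times in a library, with medians of 2.97 CPM in WT and 3.47 CPM in AMKO, which leaves its difference of 0.19 (SE 0.19, adjusted p = 0.596) poorly resolved. Gapdh, a gene that every cell uses, was also counted only 150 to 318 times, and whether these low counts share a source was not tested. The search for copies, at 95% identity over 300 bp, listed none for Gabarap. The sources used here do not state how reads with several matches were counted, so the level of Gabarap is uncertain.

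Of the other cargo receptors, Nbr1, a p62-like receptor of ubiquitinated cargo, lay between 100.1 and 115 CPM in WT and between 102 and 117 CPM in AMKO libraries, with overlap throughout (0.04, SE 0.06, adjusted p = 0.775). Optn, encoding optineurin, a receptor in the clearance of bacteria and damaged mitochondria, had medians of 18.7 and 22.6 CPM (0.22, SE 0.13, adjusted p = 0.337). Sqstm1 was thus the 1 receptor of the 3 that passed; whether its difference exceeds theirs was not tested.

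**Figure D2:**
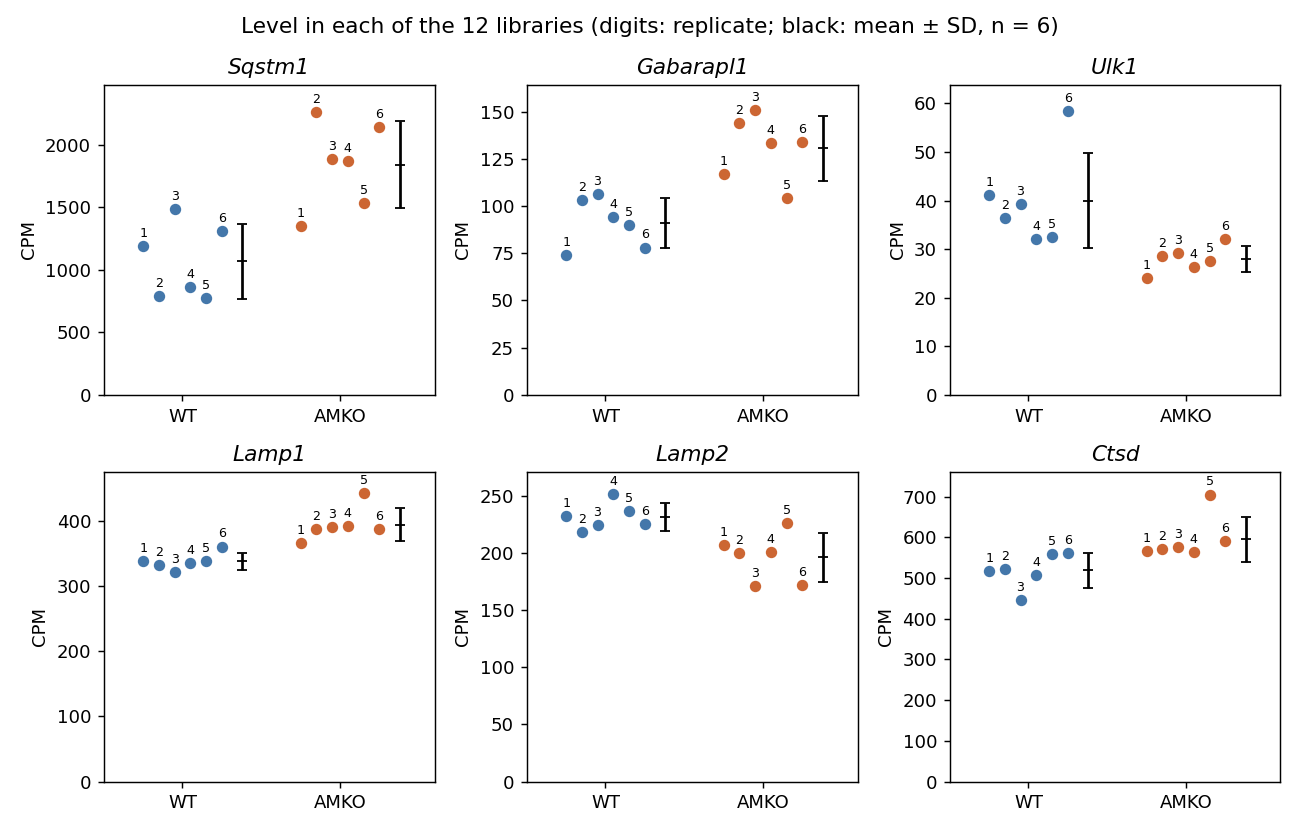
CPM in each of the 12 libraries for Sqstm1, Gabarapl1, Ulk1, Lamp1, Lamp2 and Ctsd, with WT and AMKO libraries apart. Ulk1 lies at 32.04 CPM or more in WT and at 32.02 CPM or less in AMKO libraries, and the lowest Sqstm1 values, 772 to 861 CPM, are those of WT 2, WT 4 and WT 5.

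Of the 4 genes of the ULK initiation complex, 1 passed the test, Ulk1, on the lower side, beside 3.37% of all genes called lower. The fitted fold change was above 0 for 2 of the 4 and below 0 for 2. Ulk1, at chr5:110784488-110810097 on the minus strand (mm10), encodes the kinase through which AMPK and mTORC1 switch autophagy on and off. Its WT levels ran from 32.04 CPM through a median of 37.8 to 58.5 CPM in WT 6, and its AMKO levels from 24.0 through 28.1 to 32.02 CPM. The genotypes did not overlap, although the nearest libraries, WT 4 and AMKO 6, were 0.018 CPM apart. Ulk1 fell by 0.52 on the log2 scale (SE 0.13, adjusted p = 0.0376), to 0.698 of the WT level.

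The size of the Ulk1 difference leaned on WT 6: without that library it was -0.38 (adjusted p = 0.0453). The call held in only 3 of the 12 fits that left out 1 library, those without WT 4, WT 5 or WT 6, and the highest adjusted p among them was 0.0773. No annotated exon of another gene overlapped those of Ulk1.

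The partners of Ulk1 did not pass the test. Its paralogue Ulk2 ran from 14.5 to 21.2 CPM in WT and from 11.4 to 19.8 CPM in AMKO libraries (-0.13, SE 0.14, adjusted p = 0.613). The scaffold genes of the complex were slightly to the other side: Atg13 at 0.12 (SE 0.10, adjusted p = 0.555) and Rb1cc1, which encodes FIP200, at 0.12 (SE 0.10, adjusted p = 0.532).

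Of the 4 nucleation genes, 0 were called by edgeR or DESeq2 and 0 had an unadjusted p under 0.05. Becn1, encoding Beclin 1, had medians of 106 CPM in WT and 117 CPM in AMKO (0.11, SE 0.07, adjusted p = 0.395), and 3104 bp of its exons lie opposite those of Cntd1. Atg14, the subunit that directs the kinase complex to autophagosomes, was at 0.03 (SE 0.09, adjusted p = 0.874), and Wipi1, which reads its lipid product, at -0.01 (adjusted p = 0.958). Vmp1, a membrane protein of the endoplasmic reticulum first described as induced in pancreatitis, was the most abundant of this group, with medians of 390 and 422 CPM (0.12, SE 0.09, adjusted p = 0.480). Vmp1 spread more among AMKO libraries, from 330.1 to 499 CPM, than among WT libraries, from 366 to 401 CPM.

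Of the 5 conjugation genes, 0 were called by edgeR or DESeq2 and 1, Atg16l1, had an unadjusted p under 0.05. Atg3 (the E2-like enzyme for LC3) was at 0.15, Atg7 (the E1-like enzyme) at 0.15, Atg12 at 0.09, Atg16l1 at 0.19 and Atg5 at -0.07 on the log2 scale, with adjusted p-values from 0.193 to 0.680. Atg16l1, the protein that places the conjugating enzyme on the membrane, came nearest to a call, with medians of 28.1 CPM in WT and 30.9 CPM in AMKO libraries and 3 of 6 AMKO libraries above the WT range. Over initiation, nucleation and conjugation together, 9 of 13 genes had a fitted fold change above 0, beside 49.7% of all genes. Their median was 0.11, and Ulk1 was the 1 called, beside 5.78% of all genes.

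Tfeb and Tfe3 encode related transcription factors that switch on lysosomal genes by binding the CLEAR element, whose core is read here as TCACGTGA. Tfeb was the least abundant member per exon length, with 17 to 135 counts in a library, and its medians were 5.15 CPM in WT and 6.63 CPM in AMKO libraries (0.45, SE 0.27, adjusted p = 0.361). The value of WT 3, at 1.39 CPM and 17 counts, stood apart from 4.85 to 6.39 CPM in the other WT libraries. Tfe3 had medians of 40.2 and 44.5 CPM (0.12, SE 0.07, adjusted p = 0.313). Their activity is set largely by phosphorylation and location in the cell, which RNA levels do not show.

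A CLEAR core was found on either strand in the promoters of 5 of the 27 members with an entry in the RefSeq table (GRCm38.p6, 250 bases before to 50 after the annotated start). These windows are printed because they show which members hold this exact core. They do not show which members TFEB or TFE3 bind, and Lamp1 holds the shorter E-box without this core. The capitals mark the TCACGTGA core, and the 6 sequences read 5′ to 3′ on the strand of the gene. The Ctsa window ends at the start site; a second core of Ctsa, which begins at base 4 from the start, is not printed.
Atg3, chr16:45158746-45158775, plus strand: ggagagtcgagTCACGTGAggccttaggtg
Ctsa, chr2:164833749-164833772, plus strand: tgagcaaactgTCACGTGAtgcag
Ctsd, chr7:142387908-142387937, minus strand: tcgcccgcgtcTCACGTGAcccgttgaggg
Gla, chrX:134601215-134601244, minus strand: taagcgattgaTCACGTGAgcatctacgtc
Gla, chrX:134601182-134601211, minus strand: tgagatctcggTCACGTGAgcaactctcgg
Mcoln1, chr8:3500462-3500491, plus strand: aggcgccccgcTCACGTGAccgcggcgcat
Of all 32851 promoters in the table, 320 (0.974%) held this core. That share is per promoter, whereas members are counted per gene, and the 27 members have 34 promoters. Per gene, 208 of the 10108 tested genes with a promoter in the table held the core. No entry was found for Atg12, Atg16l1, Becn1, Map1lc3a, Npc1 and Rb1cc1.

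The core contains the E-box CACGTG, found in 9 members (those 5 with Atg5, Atg7, Atg14 and Lamp1) and in 2349 promoters (7.15%). Per gene, 1183 of the 10108 tested genes with a promoter in the table held the E-box. The motif percentages here are per promoter, whereas members are counted per gene. A second motif, TGACNNNGC, the core of the antioxidant response element that NRF2 binds, was found on either strand in Atg13, Ctsd, Ctsz, Hexa, Map1lc3b, Ulk2 and Vmp1, and in 4071 promoters (12.4%). The forkhead site TGTTTAC was found in no member, and in 1199 promoters (3.65%). The promoter windows of Sqstm1, Gabarapl1 and Ulk1 held none of these letters. Only exact letters from 250 bases before to 50 after the start were read. Sites farther away or with other letters were not searched. The 5 members with a CLEAR core had log2 fold changes from -0.17 (Gla) to 0.20 (Ctsd). Of the 5, 0 were called by edgeR or DESeq2 and 1, Ctsd, had an unadjusted p under 0.05, beside 5.93% called of the 10108 tested genes with a promoter in the table.

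Among the lysosomal membrane proteins, the most abundant pair had fitted differences of opposite sign. Lamp1 and Lamp2 encode the heavily glycosylated proteins that line the lysosome, and Lamp2 is also needed for fusion with autophagosomes and for chaperone-mediated autophagy. Lamp1 ran from 321 through 337 to 361 CPM in WT and from 366 through 389 to 442 CPM in AMKO libraries, so every AMKO library lay above every WT library. Its log2 fold change was 0.22 (SE 0.07, adjusted p = 0.0599), which missed the threshold.

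Lamp2 ran from 218 through 229 to 252 CPM in WT and from 171 through 200.5 to 227 CPM in AMKO libraries. Of the 6 AMKO libraries, 5 lay below the WT range and AMKO 5 lay inside it. The log2 fold change was -0.24 (SE 0.08, adjusted p = 0.0915), again short of the threshold. Both genes were called with DESeq2 (Lamp1 adjusted p = 0.000943, Lamp2 0.0454) and with limma voom (0.0197 and 0.0275). DESeq2 called 9.47% of all genes and voom 12.1%, beside 5.78% in the main edgeR fit. Lamp1 was also called without AMKO 1 (0.0336) and Lamp2 without AMKO 5 (0.0450). Of all genes, 8.11% were called without AMKO 1 and 8.22% without AMKO 5. The exons of Lamp1 share 249 bp with Grtp1 on the opposite strand, which had 45 to 80 counts.

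Npc1, which exports cholesterol from the lysosome, had medians of 35.8 and 36.2 CPM (0.06, SE 0.09, adjusted p = 0.735). Mcoln1, the lysosomal calcium channel TRPML1, had medians of 16.8 and 16.9 CPM (-0.05, SE 0.13, adjusted p = 0.872). The genotypes overlapped widely for both genes.

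None of the 6 lumen proteins passed the edgeR test; 3 of them had an unadjusted p under 0.05, and DESeq2 called 1, Ctsz. Ctsd, encoding cathepsin D, an aspartic protease that activates other cathepsins, ran from 446 through 520.1 to 562 CPM in WT and from 563 through 574 to 705 CPM in AMKO libraries. Its genotypes did not overlap, yet WT 6 and AMKO 4 were nearly level at the boundary, and the log2 fold change was 0.20 (SE 0.08, adjusted p = 0.174). Exons of Ctsd share 808 bp with Gm49369 on the same strand, so part of its count may belong to that gene model. Ctsz, encoding the carboxypeptidase cathepsin Z, had medians of 156 and 186 CPM (0.22, SE 0.08, adjusted p = 0.101); 5 of 6 AMKO libraries lay above the WT range, and without AMKO 6, the exception at 147 CPM, it was called (adjusted p = 0.0229).

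Hexa, the alpha subunit of beta-hexosaminidase, had medians of 27.0 and 32.7 CPM (0.33, SE 0.14, adjusted p = 0.198). Ctsa, the protective protein cathepsin A, was at 0.14 (SE 0.11, adjusted p = 0.494), Gla, alpha-galactosidase A, at -0.17 (SE 0.21, adjusted p = 0.686), and Npc2, the soluble partner of Npc1, at -0.07 (SE 0.22, adjusted p = 0.890). Npc2 was the lumen gene that varied most within a genotype, with a coefficient of variation of 24.9% in WT and 36.6% in AMKO libraries. Over the 10 lysosomal genes the median log2 fold change was 0.10, with 6 above 0. By edgeR 0 of the 10 were called and 5 had an unadjusted p under 0.05, beside 21.9% of all genes. DESeq2 called Lamp1, Lamp2 and Ctsz, beside 9.47% of all genes.

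Averaged over the 6, lumen genes were highest and lowest in libraries that were high and low in immune-cell markers. The leukocyte score, the mean centred log2 CPM of 42 marker genes of neutrophils, macrophages, dendritic cells and B cells (no T cell marker passed the filter on low counts), was highest in AMKO 1 (1.27) and AMKO 5 (1.15) and lowest in WT 3 (-1.38), AMKO 6 (-1.07) and AMKO 3 (-0.96). The same mean over the 6 lumen genes was highest in AMKO 5 (0.46) and AMKO 1 (0.22) and lowest in WT 3 (-0.37) and AMKO 6 (-0.22). Npc2, for example, was at 117 CPM in AMKO 5 and 107 CPM in AMKO 1, and at 53.4 CPM in WT 3 and 52.8 CPM in AMKO 6.

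The summed macrophage markers (20 genes, Aif1 at 0 throughout) ran from 464 to 1171 CPM in WT and from 628 to 2021 CPM in AMKO libraries. Of 19 tested genes, 1 was called, higher, beside 2.41% of all genes called higher and 21.9% at an unadjusted p under 0.05. The summed neutrophil markers (18 genes) ran from 147 to 1108 CPM in WT and from 142 to 729 CPM in AMKO libraries, with 0 of 12 called by edgeR or DESeq2 and 1 at an unadjusted p under 0.05. With the leukocyte score as a covariate, Sqstm1, Gabarapl1 and Ulk1 were still called, and Lamp1 (adjusted p = 0.0493) and Lamp2 (0.0395) were called as well. That fit called more genes in general, 10.9% of all genes beside 5.78% without the covariate. For the other lysosomal genes, the part of immune cells in their levels was not tested further.

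Some markers of resident cells were called lower in AMKO libraries, while the summed markers overlapped. The 2 acinar calls were higher, and 0 of 9 islet and 0 of 4 adipocyte genes were called by edgeR. Over all genes tested, 3.37% were called lower and 21.9% had an unadjusted p under 0.05. Of 9 fibroblast and stellate genes tested, Pdgfrb and Postn were called lower and 5 had an unadjusted p under 0.05, with sums of 812 to 1825 CPM in WT and 706 to 1794 CPM in AMKO libraries. Of 9 duct genes, Muc1 and Spp1 were called lower (sums of 13378 to 17596 and 11785 to 18422 CPM), and of 6 endothelial genes, Kdr (135 to 199 and 104 to 168 CPM). Krt8 and Krt18 had the highest mean CPM in the duct sum. The part of these cells in the members' levels was not tested.

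**Figure D3:**
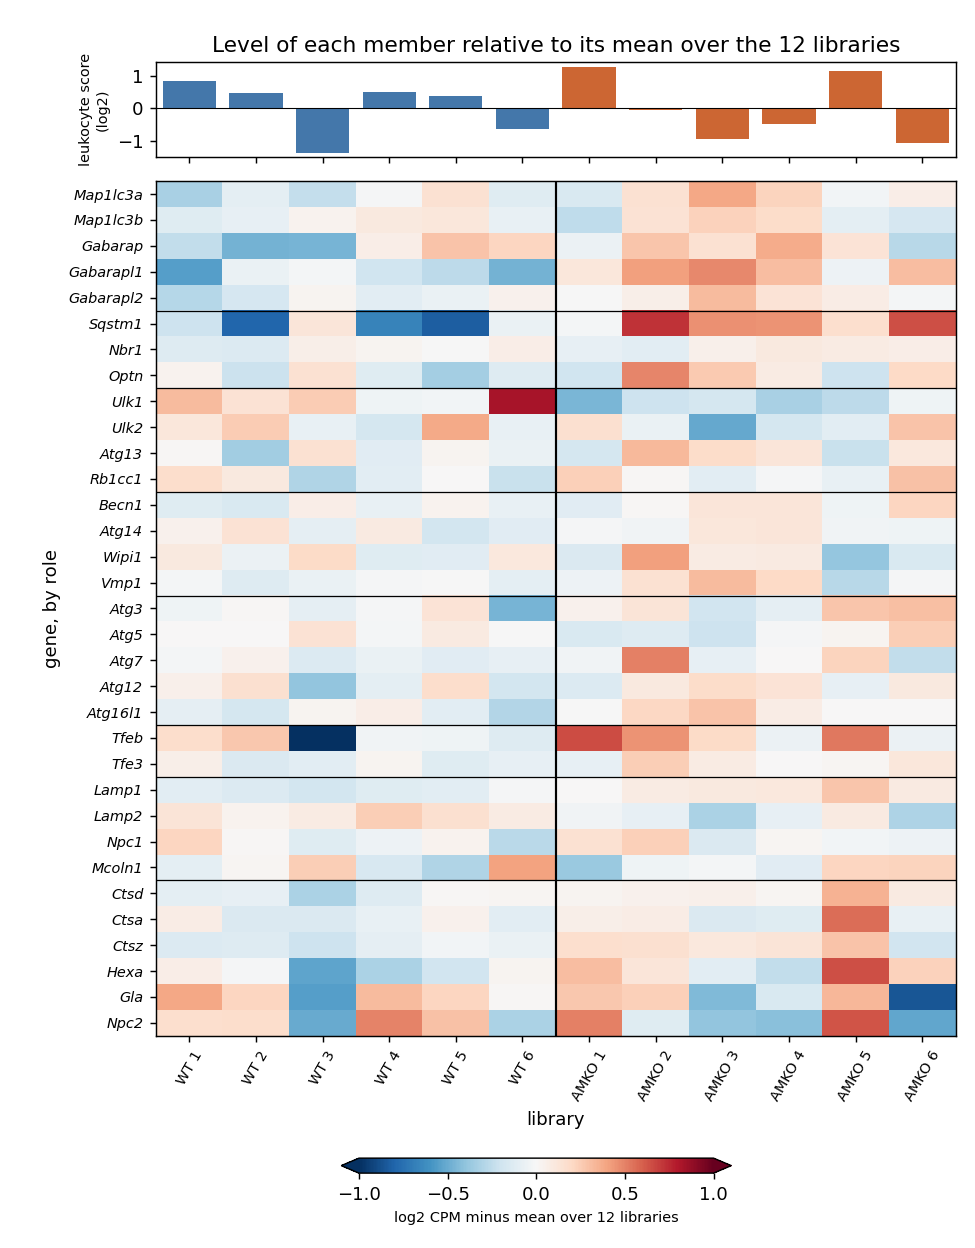
Log2 CPM of each of the 33 genes minus its mean over the 12 libraries (colour, limited to 1 either way), with the leukocyte score of each library as bars above. Of the 6 rows of lumen genes at the foot, all but Gla are highest in AMKO 5 (leukocyte score 1.15), and WT 3 (-1.38) is low in them, whereas the Sqstm1 row is lowest in WT 2, 4 and 5.

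Levels can be compared between genes only per exon length, here as CPM per kb of annotated exon. In WT libraries Sqstm1 was highest, at 318 ± 90.0 CPM per kb (SD, n = 6), followed by Ctsd (221 ± 18.0), Map1lc3a (135 ± 16.02), Lamp1 (126 ± 4.87), Ctsz (108 ± 4.68), Vmp1 (100.1 ± 3.64) and Gabarapl1 (45.2 ± 6.52). The ranges of WT libraries did not overlap between the neighbours Ctsd and Map1lc3a, Lamp1 and Ctsz, Vmp1 and Gabarapl1, or Gabarapl1 and Lamp2; the other neighbours in this stretch could not be separated. In AMKO libraries Sqstm1 rose to 549 ± 103 CPM per kb.

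Most initiation and conjugation genes lay below the middle of the order, beside the lysosomal genes Npc1, Gla and Mcoln1. Ulk1 was at 6.16 ± 1.51 CPM per kb in WT and 4.31 ± 0.419 in AMKO libraries, and Rb1cc1, Atg16l1, Ulk2, Atg7, Atg12 and Atg14 lay between 2.50 and 3.21 CPM per kb in WT libraries with no separation between neighbours. Gabarap, at 1.63 ± 0.374, and Tfeb, at 0.850 ± 0.314, were lowest. The length counts every annotated exon, so a gene with a long exon used in few transcripts, such as Map1lc3b with 7517 bp, is understated on this scale.

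**Figure D4:**
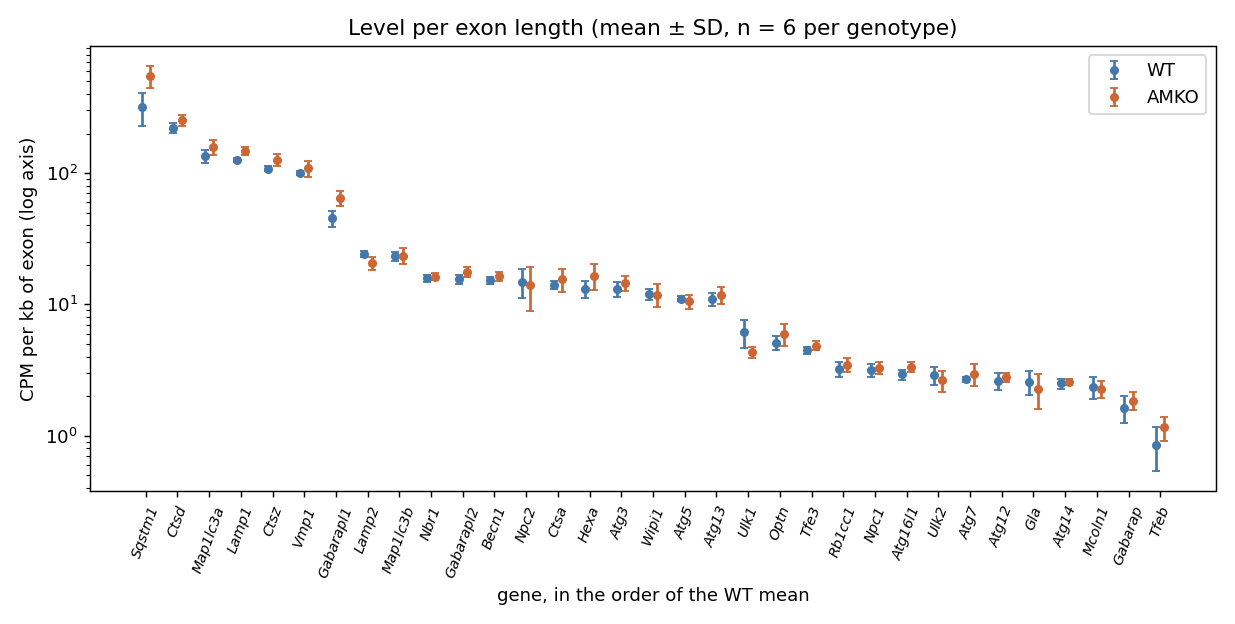
Mean CPM per kb of exon (log axis, mean ± SD, n = 6 libraries per genotype) of the 33 genes in the order of the WT mean. Sqstm1 heads the order in both genotypes, at 318 in WT and 549 in AMKO libraries, and Tfeb is lowest at 0.850 and 1.16.

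To set the members in their pathway, 176 tested genes of 8 further autophagy and lysosome lists were read the same way. These lists too were chosen with earlier results of these data known. Of these, 15 were called (8.52%, beside 5.78% of all genes), 10 higher and 5 lower, and the median log2 fold change was 0.04.

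The proton pump that acidifies the lysosome had calls on the higher side: of 18 V-ATPase subunits, 3 rose and 0 fell by edgeR, and 4 rose and 0 fell by DESeq2. Of all 13743 genes, edgeR called 2.41% higher and 3.37% lower, and DESeq2 called 649 higher and 653 lower. An unadjusted p under 0.05 was reached by 8 of the 18 (21.9% of all genes), of which Atp6v0a2 was on the lower side (-0.20, SE 0.07, adjusted p = 0.118), and 6 of the 18 had a fitted fold change below 0. Atp6v1h rose from 33.5 ± 3.18 to 44.5 ± 2.98 CPM (SD, n = 6 each; log2 fold change 0.41, SE 0.08, adjusted p = 0.00774) and Atp6v0b from 82.0 ± 4.36 to 103 ± 8.23 CPM (0.32, SE 0.07, adjusted p = 0.0124), with no overlap between genotypes for either gene. Atp6v1b2 rose by 0.34 (SE 0.08, adjusted p = 0.0304). With total-count scaling in place of TMM, Atp6v1h was the 1 of these 3 still called (adjusted p = 0.0388), all 3 again on the higher side. The median over the 18 subunits was 0.08.

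Further cargo receptors were split: of 15 tested, 2 rose and 1 fell, beside 2.41% of all genes called higher and 3.37% lower. Fam134b, a receptor for the endoplasmic reticulum, rose from 77.2 ± 13.4 to 125 ± 32.4 CPM (0.69, SE 0.16, adjusted p = 0.0206), and Fkbp8, a mitochondrial receptor, rose by 0.28 (SE 0.08, adjusted p = 0.0461). Fundc1, another mitochondrial receptor, fell by 0.35 (SE 0.09, adjusted p = 0.0428), with no overlap between genotypes.

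Of 18 genes of the fusion step, Rab7, the GTPase of late endosomes, rose by 0.26 (SE 0.07, adjusted p = 0.0441) and Plekhm2, a linker of lysosomes to kinesin, by 0.40 (SE 0.09, adjusted p = 0.0251). Vps39, a subunit of the HOPS tether, fell by 0.44 (SE 0.08, adjusted p = 0.00816), with no overlap. Beside these calls, 2.41% of all genes were called higher and 3.37% lower. Vps39 lies 8.35 Mb from Mertk on chromosome 2, and the part of this proximity in its value was not tested; no member of the 33 lies within 10 Mb of Axl or Mertk.

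Among 32 genes of mTORC1 and TFEB control, Rragd, a Rag GTPase that holds mTORC1 at the lysosome and a known TFEB target, rose from 43.5 ± 5.23 to 64.0 ± 11.5 CPM (0.56, SE 0.12, adjusted p = 0.0166). Rheb, the GTPase that activates mTORC1, rose by 0.38 (SE 0.10, adjusted p = 0.0381). Ddit4, encoding REDD1, a stress-induced inhibitor of mTORC1, fell from 441 ± 95.2 to 285 ± 36.8 CPM (-0.63, SE 0.14, adjusted p = 0.0188). Of the 32, edgeR called 2 higher and 1 lower, beside 2.41% and 3.37% of all genes. DESeq2 called 4 higher and 1 lower, beside 649 higher and 653 lower of all 13743 genes. The list median was 0.06.

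In the remaining lists the calls were few. Of all genes, edgeR called 2.41% higher and 3.37% lower, and DESeq2 called 9.47% in either direction. Of 22 further genes of autophagosome formation, Atg4c, a protease that trims LC3, fell by 0.36 (SE 0.10, adjusted p = 0.0399), and 0 rose by edgeR or DESeq2; 9 of the 22 had an unadjusted p under 0.05, beside 21.9% of all genes. Of 20 other lysosomal membrane proteins, Ostm1, the partner of a lysosomal chloride transporter, rose by 0.39 (SE 0.09, adjusted p = 0.0180), and Scarb2, the carrier of glucocerebrosidase, fell by 0.32 (SE 0.08, adjusted p = 0.0309). Of 14 other lysosomal proteases, 0 were called by edgeR, 1 by DESeq2 and 2 had an unadjusted p under 0.05, with a list median of 0.13. Of 37 other hydrolases and activators, 0 were called by edgeR or DESeq2 and 2 had an unadjusted p under 0.05, with a list median of 0.03.

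Of the 15 calls, those of Vps39, Atp6v1h, Atp6v0b, Rragd and Ostm1 held whichever single library was left out. Fam134b was lost without AMKO 3, Ddit4 without WT 1 or AMKO 3, and Plekhm2 without WT 2, AMKO 2, AMKO 3 or AMKO 6. The remaining 7 genes were lost in 7 to 11 of the 12 fits that left out 1 library.

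**Figure D5:**
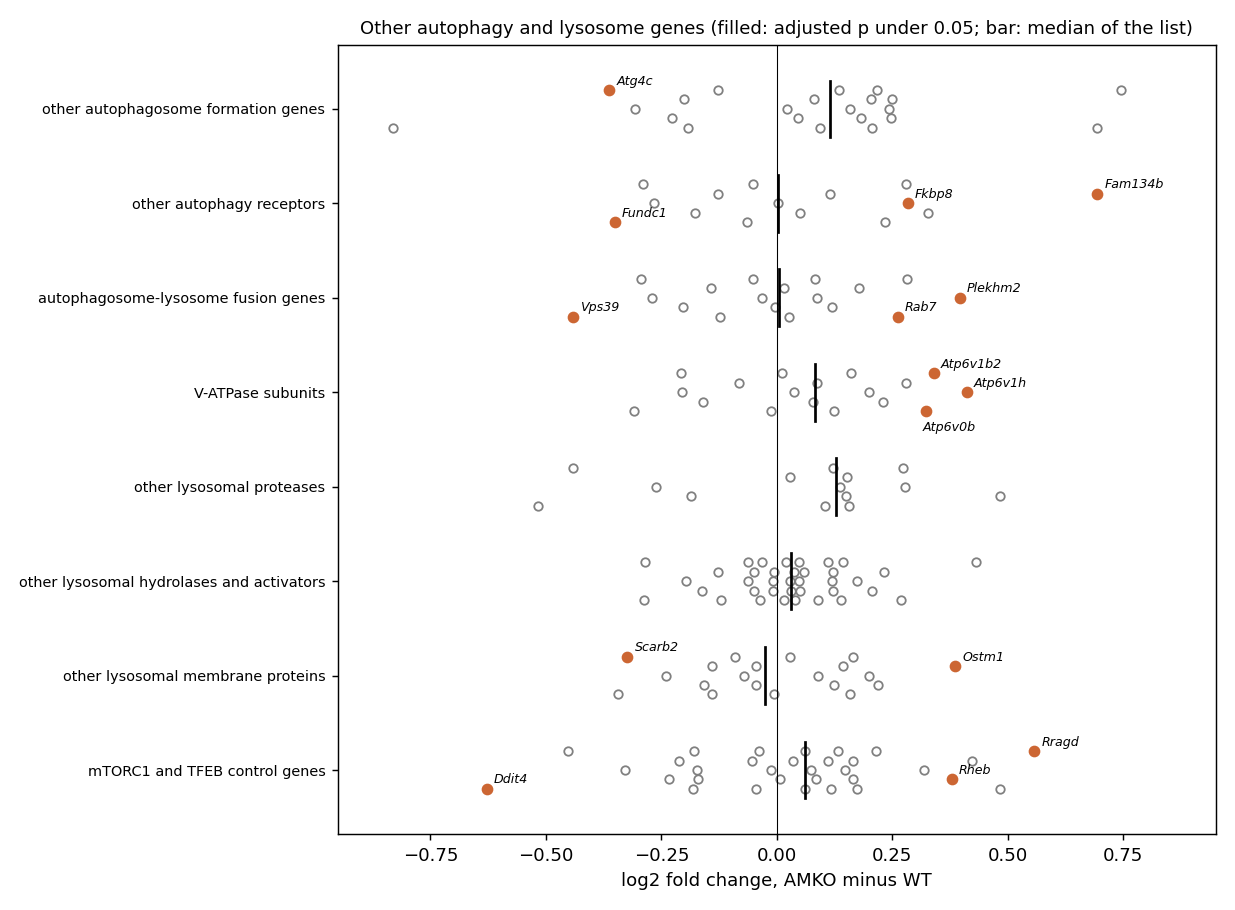
Log2 fold change (AMKO minus WT) of the 176 other autophagy and lysosome genes, 1 row of points per list, with the 15 called genes marked. Calls on the higher side include 3 V-ATPase subunits, and no gene of the protease and hydrolase lists is called by edgeR.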

How the data were processed

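The authors deposited 1 table of raw counts for 46095 genes in 12 libraries; 19888 genes were at 0 in all of them. Reads were aligned with HISAT2 2.0.4 to mm10, per the submitters' processing notes; the counter, annotation, strand setting and handling of multiply matching reads were not given in the sources used here. Each column was matched to its sample by title, and samples were grouped by the labelled genotype.

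The quasi-likelihood F test of edgeR 4.0.16, run in R 4.3.3, compared AMKO with WT. Counts were TMM-scaled and filtered with filterByExpr, genotype was the single term, and p-values were adjusted over 13743 genes by the Benjamini-Hochberg method. Genes with an adjusted p under 0.05 were called, with no fold threshold, and the tests were two-sided. The fit was tested on simulated data. Totals of 10668637 to 15184371 counts set the precision: Gabarap had 24 to 55 counts and Tfeb 17 to 135, and Tfeb, Npc2 and Gla had the largest standard errors. Same-genotype libraries differed by 9.15 to 66.6 chi-square per degree of freedom, so none was a repeat deposit. CPM use TMM-scaled library sizes. A score is the average of its genes' log2 CPM (prior count of 2), each centred on its mean over the 12 libraries.

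Exon lengths, overlaps and coordinates came from GENCODE M21 (GRCm38, the mm10 assembly), copies from alignments of at least 95% identity over 300 bp, and promoters from RefSeq (GRCm38.p6), searched on both strands.

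The members and the gene lists were chosen with earlier results of these data known. All 33 members are named; of other pathway genes, the called ones, at most 4 per list and direction. Alternatives were other scalings and filters, DESeq2 1.42.0, limma 3.58.1 (voom with quality weights), a replicate block, leukocyte and Xist covariates, and fits without libraries; the Xist covariate was chosen after seeing the data.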

Additional observations from a re-analysis of the deposited data

Results flagged for a closer look

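In 66 searches (33 genes in each genotype), 4 showed a library far from the other 5 of its group, measured as its gap to the nearest library over the whole range of log2 CPM and set against Dixon's 95% critical value. Chance alone gives about 1 in 20 such searches.

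Tfeb was low in WT 3, with a ratio of 0.815: 1.39 CPM from 17 counts, against 4.85 CPM in the nearest WT library. WT 3 is also the library with the lowest leukocyte score, -1.38.

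The other 3 were lysosomal genes in AMKO 5. Ctsd stood high there with a ratio of 0.790 (705 CPM, nearest AMKO library 590.3 CPM), Ctsa with a ratio of 0.691 (102 CPM, nearest 72.7 CPM) and Lamp1 with a ratio of 0.636 (442 CPM, nearest 392 CPM). AMKO 5 had the highest summed macrophage markers of the 12 libraries, 2021 CPM, and its part in these values was not tested. Without AMKO 5, the calls of Gabarapl1 and Sqstm1 held, and Lamp2 was called in place of Ulk1 (Lamp2 adjusted p = 0.0450).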

How the results depend on the processing

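The medians of the 4 member groups kept their sign in every alternative and in every fit without 1 library: from 0.14 to 0.28 for the LC3 family and receptors, 0.06 to 0.14 for initiation, nucleation and conjugation, 0.19 to 0.35 for Tfeb and Tfe3, and 0.06 to 0.15 for lysosomal proteins. Gabarapl1 was called in 23 of 26 alternatives, Sqstm1 in 18 and Ulk1 in 15, and none of them changed direction. The number of libraries and the spread within both genotypes limit the calls, the low counts of Gabarap and Tfeb limit those values, and no untreated tissue or protein was measured.

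Among the 33 members, DESeq2 called 6, voom 5, the leukocyte covariate 5, the fit with WT 4 to 6 alone 0, with WT 1 to 3 alone 1, and the fit without WT 3, WT 6, AMKO 3 and AMKO 6 called 0. Over all genes the calls moved from 794 to 456 with total-count scaling, 1302 with DESeq2, 1664 with voom, 1502 with the leukocyte covariate, 167 and 231 with WT 4 to 6 or WT 1 to 3 alone, and 98 without those 4 libraries. The 15 calls among the other pathway genes moved to 5 with total-count scaling, 1 and 3 with those WT subsets, and 0 without the 4 libraries, and reached 22 with the leukocyte covariate, 21 with voom and 19 with DESeq2. Fits of WT subsets or without 4 libraries hold fewer samples; the cause of the other moves was not tested. Leaving out 1 library gave 411 (without AMKO 3) to 1140 (without AMKO 5) calls over all genes, with 421 without AMKO 2, 505 without WT 4 and 524 without WT 2. It gave 1 to 3 member calls, 1 without WT 2, AMKO 2 or AMKO 3, and 5 to 19 calls among the other pathway genes.

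Reversals were limited to genes that were not called. With total-count scaling, which moved the median of all genes to -0.04, Map1lc3b was at -0.020, Nbr1 at -0.0013 and Atg14 at -0.0094. With voom, Wipi1 was at 0.065. With WT 4 to 6 alone, Map1lc3b was at -0.015, Gabarap at -0.061 and Wipi1 at 0.058. With WT 1 to 3 alone, Atg14 was at -0.017, Npc1 at -0.0030 and Npc2 at 0.043. Without the 4 libraries, Map1lc3b was at -0.0018, Rb1cc1 at -0.00082, Atg14 at -0.020, Wipi1 at 0.070, Atg12 at -0.067 and Mcoln1 at 0.064. Leaving out 1 library gave -0.026 to 0.083 for Map1lc3b, -0.11 to 0.068 for Wipi1, -0.11 to 0.038 for Mcoln1 and -0.21 to 0.027 for Npc2. The cause was not tested.

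Whether equal replicate numbers in the titles mark paired libraries is not stated. Deviations of same-numbered libraries correlated at -0.16 to 0.35, and 2 of 6 numbers had their best partner in the same number. These values do not settle whether the numbers pair. With the number as a replicate block, 910 genes and 3 members were called (Gabarapl1 0.52, adjusted p = 0.00575; Sqstm1 0.81, 0.0193; Ulk1 -0.49, 0.0200), and 13 of the other pathway genes, 10 of them among the 15 named; Atg4c, Fundc1, Rab7, Rheb and Scarb2 were lost. Of the 6 correlations, 4 were above 0.1.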

Other observations

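Ratios between members that share a role were taken within each library. The pairs were chosen after their values were seen and are given as values only. The ratio of Lamp1 to Lamp2 CPM ran from 1.33 through a median of 1.44 to 1.603 in WT and from 1.77 through 1.95 to 2.28 in AMKO libraries. The ratio of Gabarapl1 to Map1lc3b CPM ran from 0.460 through 0.489 to 0.627 in WT and from 0.636 through 0.739 to 0.860 in AMKO libraries. The ratio of Sqstm1 to Nbr1 CPM ran from 7.03 through 9.65 to 12.97 in WT and from 13.05 through 16.2 to 22.1 in AMKO libraries. The ratio of Ulk1 to Ulk2 CPM ran from 1.53 to 3.78 in WT and from 1.32 to 2.57 in AMKO libraries.

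Across all tested genes whose promoter is in the RefSeq table (10108, of which 599 or 5.93% were called), those with a CLEAR core numbered 208, with 11 called (7 higher, 4 lower) and a median log2 fold change of 0.03. Those with the wider E-box numbered 1183, with 87 called (61 higher, 26 lower) and a median of 0.05, beside 253 higher and 346 lower among all 10108. The E-box is read by many factors other than TFEB and TFE3, MYC among them, and no factor's binding was measured here.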
